A study of Homo sapiens with 12 samples.

Results

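The genes for the proteins of the cytosolic ribosome were examined for 5-methylcytosine (5mC) and 5-hydroxymethylcytosine (5hmC) at their transcription starts and in their bodies. Members were the protein-coding genes on chromosomes 1 to 22 whose symbols are RPL or RPS followed by a number and, in some, A, X or L, with at least 5 measured CpGs in the hg38 gene span plus 1500 bp on each side. Of 80 matching symbols, 4 lie on the X chromosome and were outside the rule, and RPL32 and RPL37A had 0 and 3 measured CpGs. The remaining 74 genes are described here, out of 17549 protein-coding genes that met the same minimum in both tables. The DCBQ group was SV-HUC-1 cells, a human urothelial line immortalised with SV40, kept for 3 days with 2,6-dichloro-1,4-benzoquinone, a by-product of water disinfection. The Control group was the same line kept for the same time with a blank solution. Each group had 3 samples, named DCBQ1 to DCBQ3 and Control1 to Control3, and each value was derived from reduced representation bisulfite sequencing (RRBS) and its oxidative form, which tells 5mC from 5hmC. Since no label says that the 3 samples of a group were grown apart, every p-value below reflects only how much these samples vary, and that variation may be technical.

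Every growing cell transcribes ribosomal protein genes at a high rate, and most of their promoters lie in CpG islands, stretches rich in CpG that are normally free of 5mC. 5mC is a methyl group on cytosine that is common inside transcribed genes and is linked to silencing when it covers a promoter. TET enzymes oxidise it to 5hmC. Most ribosomal protein mRNAs begin with a C and a run of pyrimidines, the 5′ terminal oligopyrimidine (TOP) tract, through which their translation responds to growth signals. A few paralogues with an L suffix are transcribed in particular tissues, such as RPL10L in testis and RPL3L in striated muscle, or encode accessory proteins.

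The sequences around the starts show what the windows are centred on and how the paralogues differ. RefSeq promoter sequences (hg38) were matched for 59 of the 76 autosomal members. Each line runs from 12 bases before the start to the 22nd transcribed base, 5′ to 3′, with the pyrimidine run that holds the start in capitals. RPS6, RPS19, RPS24, RPL27A and RPS21 are widely expressed genes, and the last 4 names are paralogues.
RPS6 (chr9:19380215-19380248, minus strand): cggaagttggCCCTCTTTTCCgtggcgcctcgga
RPS19 (chr19:41860243-41860276, plus strand): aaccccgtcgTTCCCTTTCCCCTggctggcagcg
RPS24 (chr10:78033851-78033884, plus strand): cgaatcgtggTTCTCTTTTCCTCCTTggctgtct
RPL27A (chr11:8682780-8682813, plus strand): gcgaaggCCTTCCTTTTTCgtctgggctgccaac
RPS21 (chr20:62387091-62387124, plus strand): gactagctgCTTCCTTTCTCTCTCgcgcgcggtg
RPL22L1 (chr3:170870174-170870207, minus strand): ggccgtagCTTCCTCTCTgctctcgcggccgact
RPL10L (chr14:46651760-46651793, minus strand): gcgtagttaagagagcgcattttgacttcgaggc
RPL26L1 (chr5:172958717-172958750, plus strand): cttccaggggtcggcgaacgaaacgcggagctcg
RPS27L (chr15:63157456-63157489, minus strand): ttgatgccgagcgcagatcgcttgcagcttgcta
The first 5 genes and RPL22L1 start inside such a run, and RPL10L, RPL26L1 and RPS27L do not. A C at the start followed by a run of at least 5 pyrimidines from that base on was present in 36 of 54 members other than the paralogues (66.7%), in 1 of 5 paralogues, and in 4.58% of 15100 protein-coding promoters.

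The 300-base promoters, from 250 bases before the start to 50 after it, had a median G+C share of 59% in the 54 members and 62.7% in all genes, with medians of 24 and 22 CpGs. The letters CCGG, the MspI site from which RRBS fragments are cut, were present in 49 of the 54 (90.7%) and in 75.9% of all promoters. Of the 59 promoters, 18 held no measured CpG, and these had a median of 16 CpGs and 1 CCGG, against 27 and 3 in the others. Among the 18 were RPL15, RPL17, RPL22, RPL24, RPL35A, RPS23, RPS3A and RPS6. These genes still had at least 5 measured CpGs within 500 bp of the start, all outside the 300 bases. On either strand, CCGGAAG, the core bound by ETS factors and itself holding CCGG, was found in 19 of the 54 (35.2%) and in 14.3% of all promoters. AAGATGGC, a core of YY1 sites, was found in 6 (11.1%) and in 3.87%. GGGCGG, bound by SP1, was found in 29 (53.7%) and in 58.7%, and TATAAA in 4 (7.41%) and in 9.83%.

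Ribosomal protein gene starts carried almost no 5mC in either condition. The start window covered 500 bp on either side of the start and needed 5 CpGs. This left 65 genes for 5mC and 64 for 5hmC, with a median of 32 CpGs for 5mC. In 29 of the 74 members the start window also held part of another protein-coding or long noncoding gene. The median gene read 1.17% 5mC in DCBQ samples and 1.29% in Control samples, beside 1.55% and 1.59% over 14022 protein-coding genes. Below 5% were 57 of the 65 genes in DCBQ and in Control alike (87.7%), against 70.9% and 70.6% of all genes. RPL10A lay just inside that bound, with 4.43% ± 1.36 in DCBQ and 4.64% ± 0.599 in Control (SD, n = 3 each). Of the genes outside it, RPS15A came nearest, with 7.08% ± 0.114 in DCBQ and 7.30% ± 0.481 in Control (SD, n = 3 each). Paralogues apart, the median was 1.17% in DCBQ and 1.22% in Control over 34 large subunit genes, and 1.09% in DCBQ and 1.31% in Control over 25 small subunit genes. The subunits were not tested against each other.

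Single CpGs showed the same floor. The start windows of members other than the paralogues held 2260 CpGs with a 5mC value, of which 69.8% to 74.6% read exactly 0 in the DCBQ samples and 67.7% to 71.8% in the Control samples. Over the start CpGs of all protein-coding genes these ranges were 55.0% to 58.8% and 54.3% to 56.6%. In all 6 samples 30.7% of the member CpGs read 0, beside 19.6% of all start CpGs, and 1.33% read at least 20%, beside 9.82%. For 5hmC, 79.9% to 81.0% of 2210 member CpGs read 0 in DCBQ samples and 80.2% to 81.4% in Control samples. The deposited values come without read depth, so no interval or detection limit can be set on a level near 0, and no source used here gives the bisulfite conversion rate.

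RPS19, a small subunit protein and the gene most often mutated in Diamond-Blackfan anaemia, had 73 start CpGs. Its mean 5mC was 0.741%, 1.22% and 1.10% in DCBQ1 to DCBQ3 and 1.42%, 1.13% and 0.706% in Control1 to Control3. The groups overlapped. RPL5, which with RPL11 binds MDM2 when ribosome assembly fails, averaged 0.934% ± 0.354 in DCBQ and 1.06% ± 0.428 in Control (SD, n = 3 each). RPS6, the target of S6 kinase, averaged 1.58% ± 0.305 in DCBQ and 1.71% ± 0.585 in Control (SD, n = 3 each) over 12 CpGs, none of them in its printed promoter. RPS3 and RPS27A, which encodes ubiquitin fused to a ribosomal protein, had fewer than 5 measured start CpGs.

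**Figure D1:**
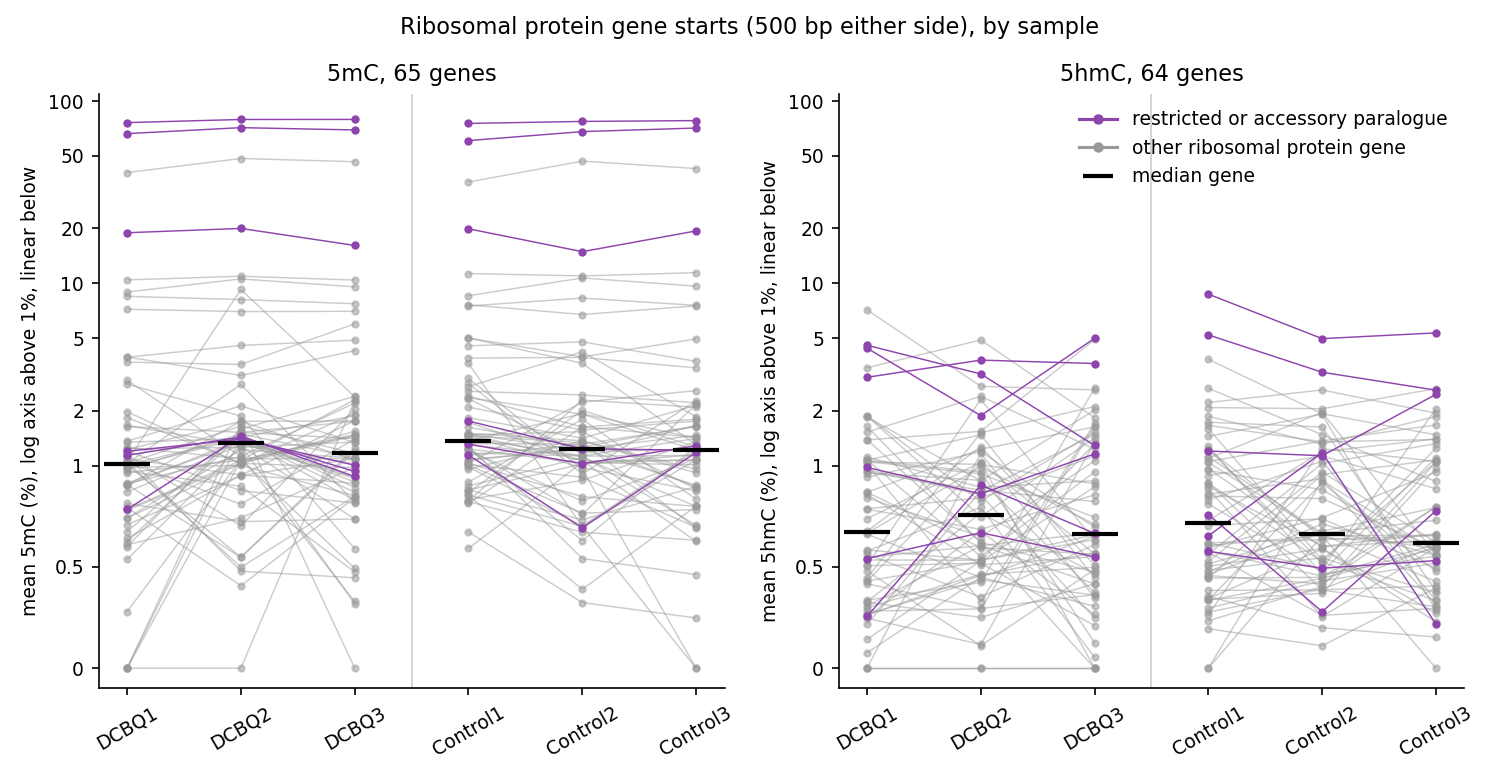
Mean 5mC (left) and 5hmC (right) of each ribosomal protein gene start in each sample, with DCBQ samples left of Control samples. The axis is logarithmic above 1% and linear below. Most genes sit near the black median bars at about 1%, while 3 of the paralogues in purple stand far above for 5mC in every sample.

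Of the 8 starts at 5% or more, 3 belonged to paralogues. RPL10L, an autosomal copy of the X-linked RPL10 that serves male germ cells, read 76.2%, 79.2% and 79.3% 5mC over 18 CpGs in DCBQ samples and 75.4%, 77.3% and 78.1% in Control samples. RPL3L, the muscle form of RPL3, read 66.3%, 71.5% and 69.4% in DCBQ samples and 60.7%, 68.0% and 71.1% in Control samples. Its 5 CpGs lie at -231 to -65 bp from the gene end taken as its start, and the flank past the other end, where MSRB1 lies, averaged 2.94% ± 0.410 in DCBQ and 3.36% ± 0.273 in Control (SD, n = 3 each) over 48 CpGs. RPL26L1, a copy of RPL26, averaged 18.4% ± 2.00 in DCBQ and 18.1% ± 2.75 in Control (SD, n = 3 each) over 54 CpGs. Within 250 bp of its start the level was 9.18% ± 0.620 in DCBQ and 9.18% ± 1.91 in Control, and from 259 to 487 bp inside it was 35.3% ± 4.73 and 34.5% ± 5.01 (SD, n = 3 each). Its listed start lies 4635 bp inside the RefSeq gene span.

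The other paralogues measured at the start sat on the same floor as the widely expressed genes. RPL39L, RPL22L1 and RPS27L read 1.18% ± 0.236, 1.201% ± 0.198 and 1.06% ± 0.347 5mC in DCBQ (SD, n = 3). In Control they read 1.21% ± 0.157, 1.40% ± 0.307 and 1.01% ± 0.271 (SD, n = 3). RPL7L1 had fewer than 5 start CpGs. For 5hmC, RPL26L1 read 4.41%, 1.88% and 4.99% in DCBQ samples and 1.203%, 1.13% and 2.46% in Control samples, which overlap (limma adjusted p = 0.970).

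The RPL10L promoter is printed beside that of RPS19 because both are well covered by measured CpGs while their 5mC is at opposite ends of the scale. Each runs from 120 bases before the start to the 30th transcribed base, with the CpGs that have a 5mC value in capitals, 12 of 14 in RPL10L and 19 of 19 in RPS19.
RPL10L (chr14:46651752-46651901, minus strand): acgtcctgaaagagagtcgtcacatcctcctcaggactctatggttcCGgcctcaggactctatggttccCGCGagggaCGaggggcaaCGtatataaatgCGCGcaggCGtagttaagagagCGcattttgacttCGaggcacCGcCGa
RPS19 (chr19:41860135-41860284, plus strand): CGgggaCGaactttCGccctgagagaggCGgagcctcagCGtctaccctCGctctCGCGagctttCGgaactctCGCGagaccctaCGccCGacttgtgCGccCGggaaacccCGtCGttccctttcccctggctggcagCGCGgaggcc
In RPL10L the 8 measured CpGs before the start averaged 96.5% ± 0.0433 in DCBQ and 96.2% ± 1.18 in Control (SD, n = 3 each). The 4 in the first 30 bases averaged 91.0% ± 2.25 in DCBQ and 90.0% ± 2.51 in Control. The 6 from 31 to 73 bp inside averaged 45.4% ± 3.94 in DCBQ and 42.5% ± 2.79 in Control. The stretch from 31 to 73 bp inside thus read lower than the stretches before it in both conditions. Means over stretches do not show whether the level fell in a step or gradually, or exactly where.

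**Figure D2:**
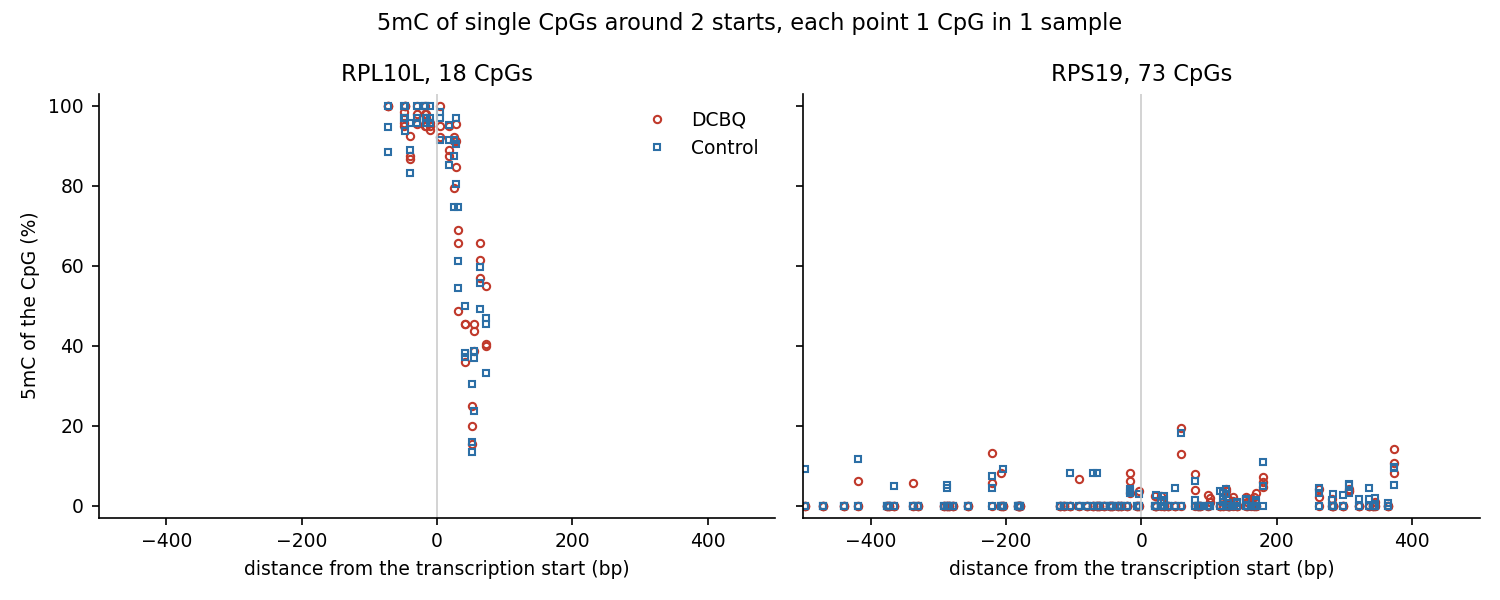
5mC of single CpGs within 500 bp of the RPL10L start (left) and the RPS19 start (right), each point 1 CpG in 1 sample, DCBQ as circles and Control as squares. RPL10L is near 100% up to the start and lower past 31 bp, and nearly all RPS19 values lie below 20%.

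Among widely expressed genes RPL24 read highest, with 40.5%, 48.4% and 46.5% in DCBQ samples and 36.0%, 46.8% and 42.6% in Control samples. Its 7 start CpGs all lie at -495 to -356 bp from the start, and no CpG nearer the start was measured. Their 5hmC read 7.16%, 2.72% and 2.60% in DCBQ samples and 1.10%, 1.96% and 0.561% in Control samples, which do not overlap (limma adjusted p = 0.970). RPL29 read 10.4%, 10.9% and 10.4% in DCBQ samples and 11.3%, 10.98% and 11.5% in Control samples. Its level came from 6 CpGs at -433 to -365 bp, with 57.0% ± 2.10 in DCBQ and 61.6% ± 0.489 in Control, while the 29 CpGs nearer its start averaged 1.01% ± 0.116 and 0.841% ± 0.270 (SD, n = 3 each). RPL11 averaged 9.70% ± 0.808 in DCBQ and 9.63% ± 1.07 in Control (SD, n = 3 each). RPS10 averaged 8.12% ± 0.380 in DCBQ and 7.80% ± 0.441 in Control (SD, n = 3 each).

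DCBQ and Control starts were not told apart. The mean over the 65 starts was 4.65%, 5.22% and 4.999% 5mC in DCBQ samples and 4.93%, 5.01% and 4.98% in Control samples, so the groups overlapped. The difference, DCBQ minus Control, was -0.0147 points (SE 0.167; two-sided exact permutation p = 0.9, adjusted p = 1 over the 4 mean comparisons). With 3 samples against 3 the smallest possible p is 0.1. For 5hmC the mean over 64 starts was 1.01%, 0.962% and 0.999% in DCBQ samples and 1.05%, 0.927% and 0.896% in Control samples. That difference was 0.0301 points (SE 0.0499; exact permutation p = 0.6, adjusted p = 1).

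No single ribosomal protein gene start passed the test for either mark. With limma over all genes, 0 of the 65 5mC starts had an adjusted p under 0.05, as did 0.0% of the 14022 tested; the smallest among the members was 0.786. At an unadjusted p under 0.05 there were 2 of 65 members, where the share over all genes was 6.15%. Lower in DCBQ were 39 of the 65 and 58.3% of all genes, with a median difference of -0.09 points in members and -0.07 in all. The samples of DCBQ lay wholly below those of Control in 3 members, against 7.57% of all genes, and wholly above in 1, against 3.76%. By subunit, 20 of 25 small subunit starts and 17 of 34 large subunit starts were lower in DCBQ, and the difference between these counts was not tested.

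The 3 starts with the smallest p were RPS24, RPS15 and RPL35A. RPS24, mutated in some families with Diamond-Blackfan anaemia, read 0.991%, 1.410% and 0.919% in DCBQ samples and 1.83%, 1.414% and 2.14% in Control samples, which leaves the groups only just apart. Its difference was -0.691 points (SE 0.267, limma adjusted p = 0.786). RPS15, a protein of the 40S head, averaged 0.782% ± 0.269 in DCBQ and 1.74% ± 0.794 in Control (SD, n = 3 each; limma adjusted p = 0.795). RPL35A averaged 1.12% ± 1.15 in DCBQ and 2.40% ± 0.175 in Control over 7 CpGs (SD, n = 3 each; limma adjusted p = 0.812). These 3 differences lie within the lowest few percent of the scale, and RPS15 and RPL35A overlapped between groups.

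5hmC at the starts was lower still, with a median gene at 0.747% in DCBQ and 0.708% in Control, beside 0.933% and 0.910% over 13951 genes. With limma 0 of 64 passed an adjusted p of 0.05, as did 0.0% of all. An unadjusted p under 0.05 was found in 6 of 64 (9.4%), against 4.85% of all genes, and these shares were not tested against each other. Lower in DCBQ were 33 of 64, against 46.4% of all genes. The groups were apart with DCBQ lower in 3 members (4.39% of all genes) and with DCBQ higher in 4 (5.44% of all genes).

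RPL27, a large subunit protein, had the smallest p for 5hmC at the start. It read 1.53%, 2.40% and 1.23% in DCBQ samples and 0.337%, 0.915% and 0.479% in Control samples, so the groups did not overlap (difference 1.14 points, SE 0.355, limma adjusted p = 0.970). RPL13A, which also has a role outside the ribosome in silencing inflammatory mRNAs, averaged 0.277% ± 0.188 in DCBQ and 0.825% ± 0.335 in Control (SD, n = 3 each; limma adjusted p = 0.970). RPL31 read 0 in every DCBQ sample and 0%, 0.926% and 0.575% in Control samples over 6 CpGs. In Control the 3 highest 5hmC starts were RPL3L, RPL10L and RPL11, while in DCBQ RPL24 and RPL26L1 read highest. RPL3L averaged 3.49% ± 0.389 in DCBQ and 6.35% ± 2.06 in Control, RPL10L 3.02% ± 1.65 and 3.69% ± 1.36, and RPL11 1.36% ± 0.843 and 2.41% ± 1.25 (SD, n = 3 each).

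The floor was widest on the transcribed side, and this was so over all protein-coding genes too. At 500 to 750 bp those averaged 34.0% 5mC in DCBQ and 34.3% in Control upstream, and 18.9% and 19.1% inside. In bins of 250 bp, members other than the paralogues averaged 1.13% ± 0.107 5mC in DCBQ and 1.28% ± 0.119 in Control just before the start, in 45 genes, and 1.65% ± 0.400 and 1.67% ± 0.296 just after it, in 52 genes. Between 750 and 1000 bp inside, 15 genes averaged 4.23% ± 0.374 in DCBQ and 4.22% ± 0.589 in Control, where all protein-coding genes averaged 28.4% ± 0.0899 and 28.7% ± 0.118. On the outer side the rise came sooner: at 500 to 750 bp upstream 25 genes averaged 23.6% ± 0.917 in DCBQ and 24.9% ± 0.709 in Control. From 1250 to 1500 bp upstream 17 genes reached 64.0% ± 0.804 and 64.5% ± 0.701 (SD, n = 3 each throughout). Different genes are measured in each bin, so the curve does not follow single genes.

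5hmC followed the same outline at a far lower level. It averaged 0.954% ± 0.283 in DCBQ and 0.868% ± 0.112 in Control just before the start. From 1250 to 1500 bp upstream it averaged 4.60% ± 0.163 in DCBQ and 3.68% ± 0.166 in Control over 17 genes (SD, n = 3 each). In this bin the samples of DCBQ all lay above those of Control. Over all protein-coding genes the groups overlapped there, with 3.81% ± 0.189 in DCBQ and 3.71% ± 0.160 in Control (SD, n = 3 each). From 2250 to 2500 bp inside, DCBQ also lay wholly above, with 7.62% ± 4.19 against 2.49% ± 0.487 in Control over 6 genes. Both bins were picked after their values were seen. The bins were not tested.

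**Figure D3:**
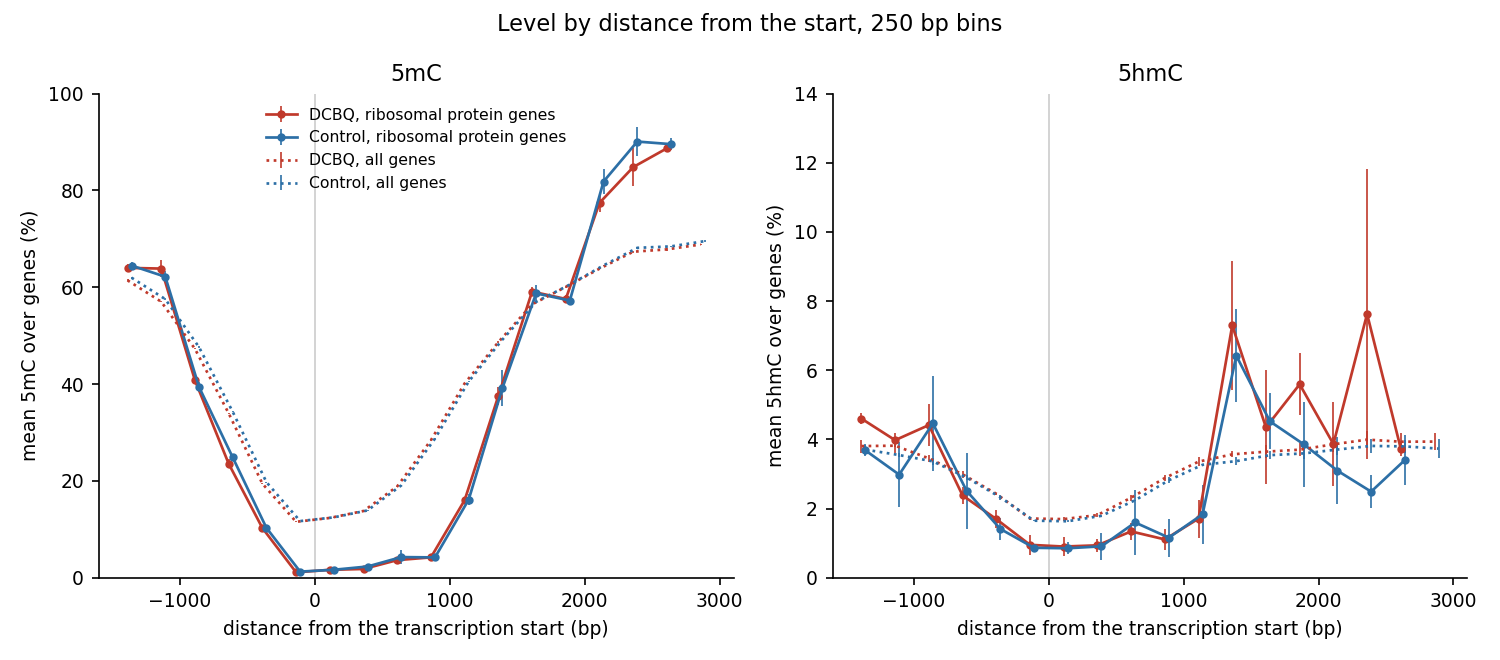
Mean 5mC (left) and 5hmC (right) by distance from the start in 250 bp bins, for ribosomal protein genes other than the paralogues (solid, bins with at least 5 genes) and all protein-coding genes (dotted), DCBQ in red and Control in blue. Points are means of 3 samples and bars their SD. The solid 5mC curves stay near 0 for about 1 kb past the start and overlap between conditions.

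Gene bodies ranged over nearly the whole scale. The body ran from 500 bp inside the start to the gene end, and 49 members had at least 5 CpGs there. The median body read 63.7% 5mC in DCBQ and 65.0% in Control, beside 71.9% and 72.4% over 15920 genes. In Control, 10 bodies lay under 20%, 28 from 20% to 80% and 11 at 80% or more. The median body length of these classes was 3341, 6001 and 7035 bp.

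The highest bodies in Control were RPS23, RPS27L and RPL39L. RPS23, which takes part in decoding, read 96.8%, 97.8% and 96.0% in DCBQ samples and 100%, 100% and 94.4% in Control samples over 9 CpGs. RPS27L, induced by p53, averaged 95.6% ± 1.40 in DCBQ and 95.5% ± 0.345 in Control, and RPL39L 88.2% ± 1.52 and 89.8% ± 1.87 (SD, n = 3 each). RPL3L had 84.5% ± 0.243 in DCBQ and 84.4% ± 0.0605 in Control over 104 CpGs, so this muscle gene was methylated in the body as at its start. RPL7L1 had 69.9% ± 2.32 in DCBQ and 72.2% ± 2.57 in Control, and RPL26L1 32.4% ± 0.765 and 32.4% ± 0.249 (SD, n = 3 each). RPL10L and RPL22L1 had fewer than 5 body CpGs.

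Among the widely expressed genes, RPS3, also known for a role in DNA repair, had 76.3% ± 0.877 in DCBQ and 76.6% ± 0.991 in Control over 93 CpGs. RPS19 had 78.1% ± 0.158 in DCBQ and 78.7% ± 1.25 in Control. By contrast 6 of 49 bodies (12.2%) were below 5% in both conditions, against 3.10% of all bodies in DCBQ and 3.08% in Control. These shares were not tested against each other. The 6 bodies were those of RPL10A, RPL12, RPS27A, RPL7, RPL5 and RPS28. They hold 7 to 27 measured CpGs each, and where in the body these lie was not examined. The body begins 500 bp past the start, where the floor went on. From 500 to 750 bp inside, 22 of 26 members other than the paralogues were below 5% in Control. These low levels therefore need not describe the whole gene. RPL5 averaged 1.59% ± 0.544 in DCBQ and 0.988% ± 0.289 in Control, and RPS27A 0.957% ± 0.353 and 1.54% ± 1.01 (SD, n = 3 each). RPL6, whose listed start lies 7393 bp inside its RefSeq span, averaged 52.0% ± 1.83 in DCBQ and 50.8% ± 0.748 in Control (SD, n = 3 each) over the part past that start.

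**Figure D4:**
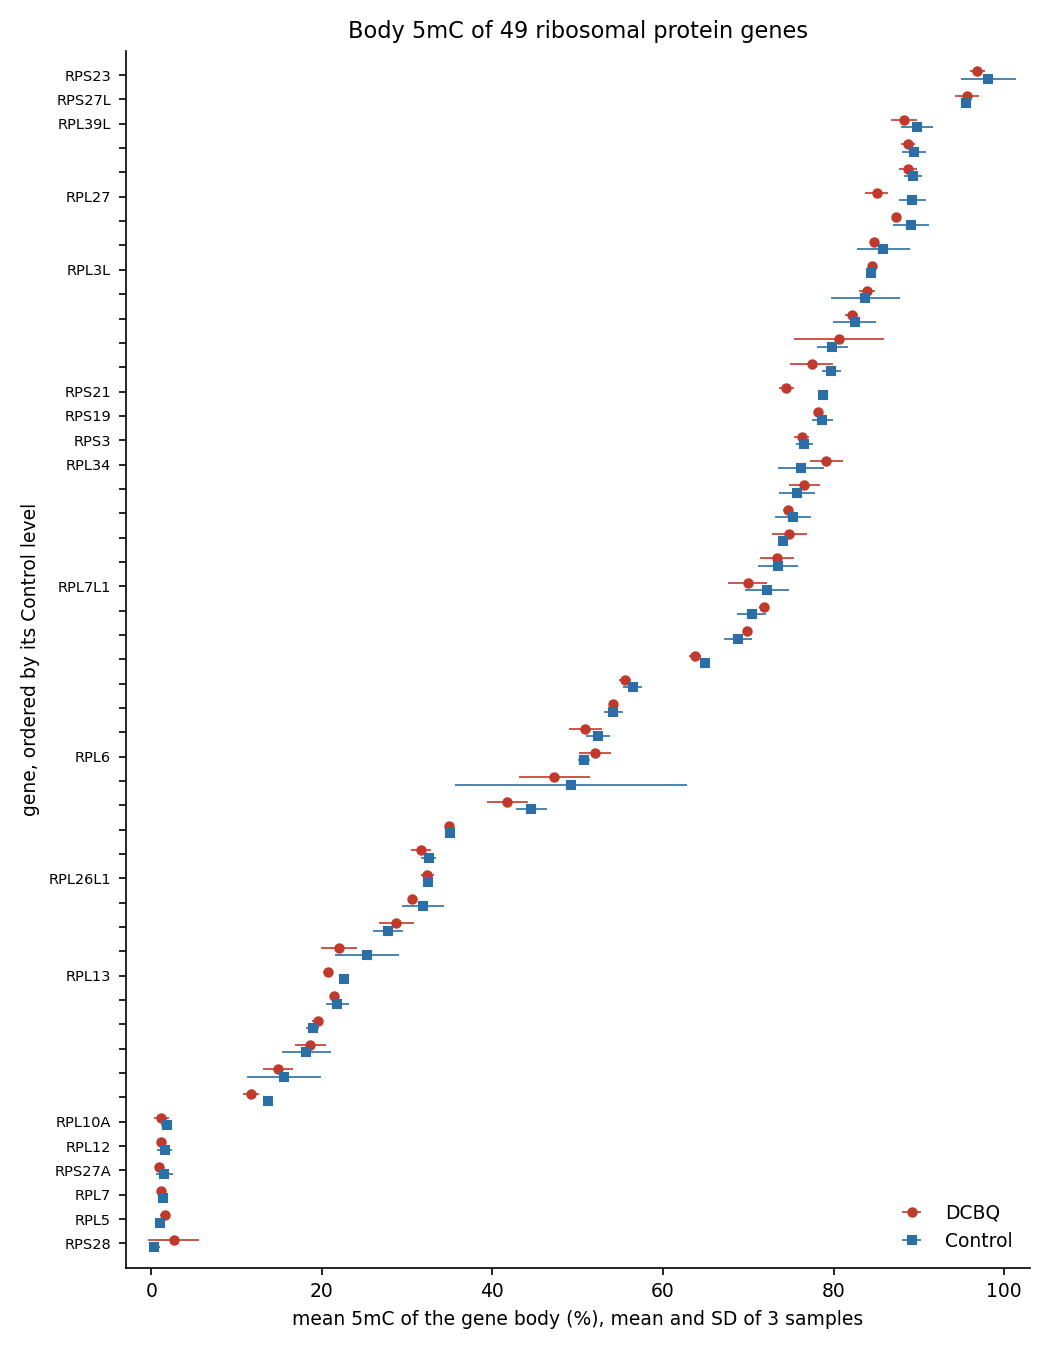
Mean 5mC of the gene body for 49 ribosomal protein genes, ordered by Control level, DCBQ as red circles and Control as blue squares, with the SD of 3 samples and names for the genes whose body 5mC is described. The genes run from about 1% to 98%, and the shift between conditions is small beside that range.

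Body 5mC leaned lower in DCBQ, as it did over all genes, and no member passed the test. The mean over 49 bodies was 53.3%, 53.2% and 53.0% in DCBQ samples and 54.4%, 53.2% and 53.6% in Control samples, which puts DCBQ at -0.578 points relative to Control (SE 0.343; adjusted p = 0.8, exact permutation p = 0.2). The groups overlapped by a narrow margin. With limma 0 of 49 passed an adjusted p of 0.05, as did 0.0% of all genes, and the smallest member value was 0.340. An unadjusted p under 0.05 was reached by 4 of 49, all lower in DCBQ, against 8.69% of all genes. Lower in DCBQ were 34 of 49 bodies and 69.8% of all, with median differences of -0.53 and -0.39 points. All DCBQ samples lay below all Control samples in 5 members (13.8% of all genes) and above in 0 (2.19% of all genes). The members' shares were thus near those of the background.

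RPS21, a small subunit protein on chromosome 20, had the smallest p. Its body (chr20:62387604-62388520, 6 CpGs) read 73.6%, 74.4% and 75.3% 5mC in DCBQ samples and 78.4%, 79.0% and 79.0% in Control samples. The difference of -4.36 points (SE 0.589) had a limma adjusted p of 0.340. The same 6 CpGs read 5.39%, 4.73% and 4.96% 5hmC in DCBQ samples and 2.98%, 0.848% and 1.01% in Control samples (difference 3.41 points, SE 0.644, limma adjusted p = 0.698). The groups did not overlap for either mark. Both marks come from the same libraries, so the values are not independent, and their sum averaged 79.5% ± 0.688 in DCBQ and 80.4% ± 0.806 in Control (SD, n = 3 each). The sum thus overlapped between groups.

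RPL13 and RPL27 followed for 5mC. The RPL13 body (chr16:89561158-89566829, 91 CpGs) read 20.9%, 20.1% and 21.2% in DCBQ samples and 23.01%, 22.4% and 22.4% in Control samples (difference -1.90 points, SE 0.405, limma adjusted p = 0.483). Its groups were apart, and its 5hmC of 2.81% ± 0.413 in DCBQ and 2.74% ± 0.543 in Control overlapped (SD, n = 3 each). The RPL27 body (chr17:42998920-43002959, 26 CpGs) read 85.0%, 83.8% and 86.4% in DCBQ samples and 90.0%, 87.4% and 90.3% in Control samples (difference -4.17 points, SE 1.04, limma adjusted p = 0.528). Its 5hmC read 6.18%, 6.90% and 3.78% in DCBQ samples and 3.77%, 2.49% and 2.88% in Control samples, barely apart. The sum of both marks over its 25 shared CpGs was 90.8% ± 0.119 in DCBQ and 92.3% ± 1.84 in Control (SD, n = 3 each).

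**Figure D5:**
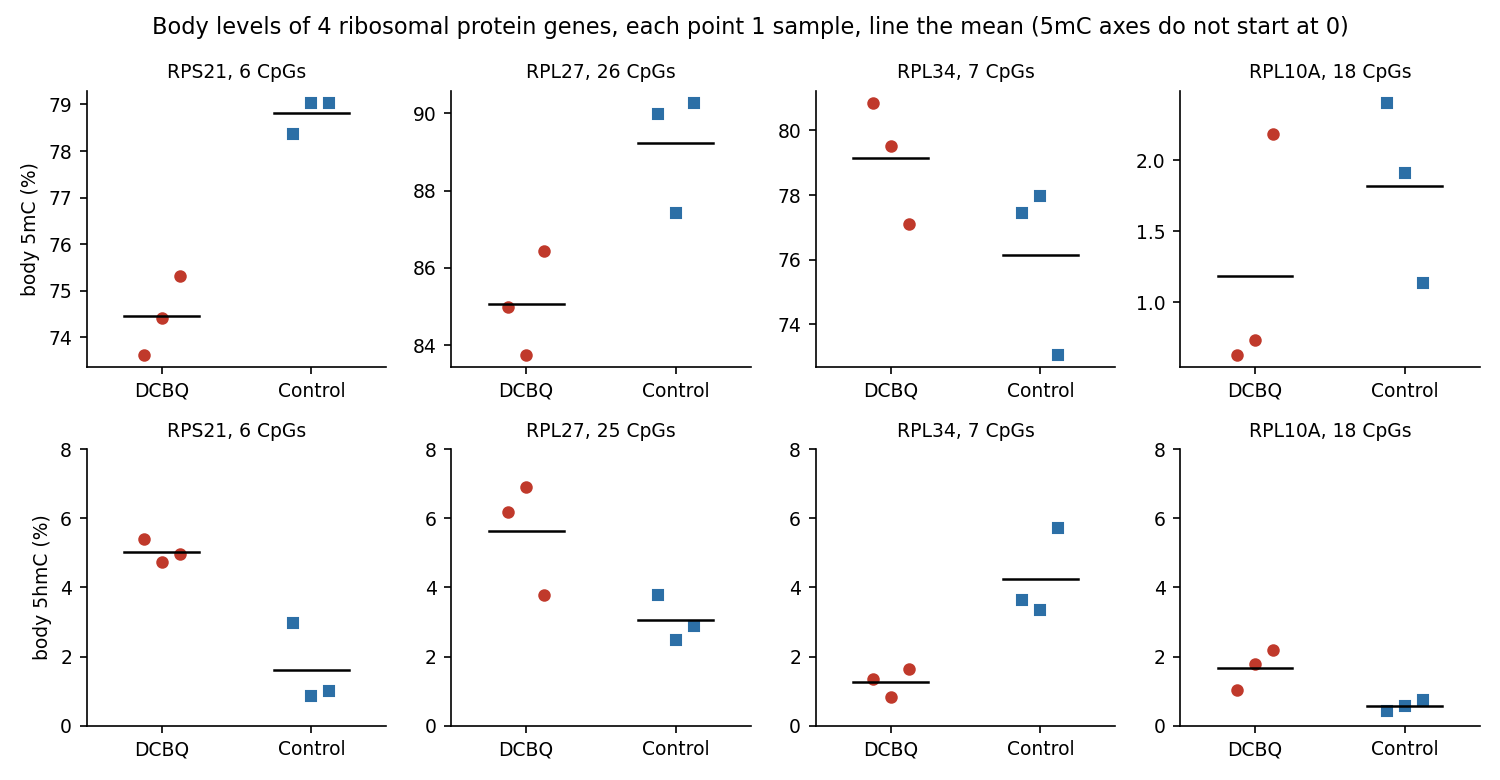
Body 5mC (top) and 5hmC (bottom) of 4 ribosomal protein genes with small p values, each point 1 sample and each line the mean, DCBQ left of Control. RPL13, whose 5mC p was below that of RPL27 and whose 5hmC overlapped between groups, is not drawn. In RPS21 and RPL27 the DCBQ samples are lower for 5mC and higher for 5hmC, and in RPL34 5hmC is lower; the 5mC axes differ and do not start at 0.

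Body 5hmC showed no common shift. The mean over 49 bodies was 2.96%, 2.55% and 2.92% in DCBQ samples and 2.77%, 3.05% and 2.59% in Control samples, or 0.00635 points for DCBQ minus Control (SE 0.189; adjusted p = 1, exact permutation p = 1). The median body read 2.71% in DCBQ and 2.68% in Control, beside 3.32% and 3.21% over 15796 genes. With limma 0 of 49 passed an adjusted p of 0.05, as did 0.0% of all genes. At an unadjusted p under 0.05 there were 7 (14.3%), of which 3 were lower and 4 higher in DCBQ, against 5.38% of all genes. The median body held 17 CpGs in members and 56 in all genes, and the difference between these shares was not tested. Lower in DCBQ were 23 of 49 bodies, against 43.4% of all. DCBQ samples lay wholly below Control samples in 4 bodies (3.49% of all genes) and wholly above in 6 (6.41% of all genes).

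After RPS21, the smallest p belonged to RPL34 and RPL10A. RPL34, a large subunit protein, read 1.34%, 0.831% and 1.64% 5hmC in DCBQ samples and 3.64%, 3.35% and 5.71% in Control samples over 7 CpGs (chr4:108621077-108630484; difference -2.96 points, SE 0.661, limma adjusted p = 0.749). Its 5mC was 79.2% ± 1.90 in DCBQ and 76.2% ± 2.69 in Control, and the sum of both marks 80.4% ± 1.72 and 80.4% ± 1.40 (SD, n = 3 each). RPL10A (chr6:35468902-35470780, 18 CpGs) read 1.04%, 1.79% and 2.20% in DCBQ samples and 0.426%, 0.564% and 0.735% in Control samples (limma adjusted p = 0.918). RPL22 and RPS7 had the highest body levels in Control. RPL22, which also binds viral and cellular RNAs outside the ribosome, averaged 5.85% ± 2.91 in DCBQ and 7.86% ± 1.63 in Control, and RPS7 10.4% ± 1.23 and 7.01% ± 3.90 (SD, n = 3 each).

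Over the whole span plus 1500 bp on each side, all 74 members were tested. For 5mC 0 of 74 passed an adjusted p of 0.05 (limma; 0.0% of 17630 genes) and 9 had an unadjusted p under 0.05 (12.2%, against 9.24% of all genes), 8 of them lower in DCBQ. For 5hmC 0 of 74 passed (0.0% of 17549 genes) and 9 had an unadjusted p under 0.05 (12.2%, against 5.14% of all genes). RPS13, a small subunit protein whose introns hold 2 small nucleolar RNA genes, stood near the top for both marks. Its 34 CpGs read 58.6%, 60.6% and 58.3% 5mC in DCBQ samples and 61.9%, 65.0% and 61.9% in Control samples (difference -3.74 points, limma adjusted p = 0.467). Of these, 33 read 8.14%, 6.61% and 7.24% 5hmC in DCBQ samples and 3.23%, 2.89% and 4.13% in Control samples (difference 3.91 points, limma adjusted p = 0.949). The groups did not overlap for either mark. Its start window and its body held 0 measured CpGs for either mark, so these values describe only the flanks beside the gene. Both marks come from the same libraries, so the differences are not independent, and their sum was not examined. Of the 74 spans with flanks, 47 also hold part of another protein-coding or long noncoding gene.

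Single CpGs of the members showed no call. Of 3925 member CpGs whose 5mC varied, 0 passed an adjusted p of 0.05 with a difference of at least 10 points (limma; 0.0% of 3419211 CpGs) and 141 had an unadjusted p under 0.05 (3.59%, against 4.69% of all CpGs). Of 3505 for 5hmC, 0 passed (3.17e-05% of 3153705) and 38 had an unadjusted p under 0.05 (1.08%, against 1.82%). The smallest 5mC p belonged to a CpG at -1042 bp from the RPS13 start (chr11:17078709), which read 66.7%, 71.4% and 66.7% in DCBQ samples and 91.7%, 90.9% and 85.7% in Control samples (limma adjusted p = 0.862). A CpG inside the RPL6 span (chr12:112413394) read 54.2%, 58.8% and 63.3% in DCBQ samples and 86.8%, 80.8% and 85.3% in Control samples (limma adjusted p = 0.866). A CpG of RPS2 (chr16:1963413) read 68.2%, 54.2% and 64.9% in DCBQ samples and 86.8%, 86.5% and 97.1% in Control samples (limma adjusted p = 0.875). These 3 differ by over 20 points between group means and are the most extreme of the member CpGs by p, so their size is set by that choice.

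For 5hmC the 3 CpGs with the smallest p had 0 in every sample of one group. A CpG at -1455 bp from the RPS27 start, near RAB13 (chr1:153989307), read 0 in all DCBQ samples and 33.3%, 14.3% and 30% in Control samples. A CpG of RPL26L1 (chr5:172959004) read 25%, 16% and 30.4% in DCBQ samples and 0 in all Control samples. A CpG of RPL3 (chr22:39317332) read 43.3%, 0% and 28.6% in DCBQ samples and 0 in all Control samples. Each had a limma adjusted p of 0.788.

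Gene groups next to the ribosomal proteins had starts on the same floor. The median 5mC at the start was 1.44% in DCBQ and 1.42% in Control over 70 mitochondrial ribosomal protein genes, 1.22% and 1.22% over 21 other translation genes such as elongation factors, and 1.52% and 1.49% over 18 ribosome biogenesis genes. For the 19 Diamond-Blackfan anaemia genes measured at the start, all of them members, it was 1.17% in DCBQ and 1.31% in Control. In none of these lists did a start or body pass limma's adjusted p of 0.05 for either mark, and at an unadjusted p under 0.05 the 5mC starts numbered 5, 1, 2 and 1 in the order given, where the share over all genes was 6.15%. The 5mC bodies at that level numbered 3 of 52, 4 of 18, 1 of 18 and 1 of 14, where the share was 8.69%. The 4 other translation genes among them were all lower in DCBQ. Lower 5mC in DCBQ was read at 44 of 70, 9 of 21, 9 of 18 and 13 of 19 of these starts, against 58.3% of all starts. In the bodies the median 5mC of the mitochondrial ribosomal protein genes was higher than that of the cytosolic ones, 78.9% in DCBQ and 79.6% in Control over 52 genes, which was not tested. Body 5mC was lower in DCBQ in 34 of those 52, 12 of 18 translation, 12 of 18 biogenesis and 9 of 14 Diamond-Blackfan genes, against 69.8% of all bodies.

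At the starts of epithelial and urothelial marker genes, 5mC was below 5% in Control for 7 of the 10 measured, among them KRT5, KRT7, CDH1 and EPCAM. Over all protein-coding starts the share was 70.6%, so this count cannot check the cell label. KRT18 read 9.16% ± 0.762 in DCBQ and 9.45% ± 1.14 in Control (SD, n = 3 each). GATA3 read 56.8% ± 5.24 in DCBQ and 52.2% ± 15.4 in Control, and UPK3A 61.9% ± 3.01 and 62.0% ± 1.78 (SD, n = 3 each). The 2 fibroblast and 2 endothelial marker starts measured were above 50% in Control, and the 1 leukocyte marker, SPI1, read 52.5% ± 3.16 in DCBQ and 49.6% ± 1.13 in Control (SD, n = 3 each). Of all protein-coding starts, 12.5% read at least 50% in Control. Expression was not measured here, so these marker levels say only which starts were methylated.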

How the data were processed

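Per the labels' protocols, a QIAamp kit gave the DNA, and Ovation RRBS Methyl-Seq with TrueMethyl oxidation gave the RRBS and oxidative RRBS libraries. The submitters' processing notes name hg38, cutadapt, Trim Galore and BSMAP 2.90, with no roles. The authors deposited 1 fraction per CpG and sample, in a 5mC and a 5hmC table of 3689712 and 3534314 CpGs. Per the table names strands were merged and 5 reads required. No source used here says how the 12 libraries were combined, and the depth is unknown.

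Levels are printed as percent. A gene's level is the unweighted mean over its CpGs, with at least 5. Starts are the outermost RefSeq start, and for 17 of the 74 members without one the gene end with more CpGs, which favours low 5mC and may be the wrong end. Genes (14022 to 17630 by unit) and single CpGs went through limma 3.58.1 in R 4.3.3 (eBayes with trend, Benjamini-Hochberg over all units, threshold 0.05), and member means with a two-sided exact permutation test over 20 relabellings. Python 3.11.15, numpy 2.4.6, pandas 2.3.3, statsmodels 0.14.6 and matplotlib 3.10.9 did the rest. Tested on simulated 5mC starts with 200 changed genes, limma recovered 155 at 5 points and 182 at 10 points, with 10 and 8 false calls. Smaller shifts, bodies and 5hmC were not simulated, and the member 5mC starts differed by only -1.4 to 3.33 points. SE is that of limma for genes and of sample means for member means.

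Members and lists were chosen with earlier results of these data known. Named are, per mark and for starts and bodies, the 3 members with the smallest p and the 3 highest in Control, the 7 paralogues, RPL5, RPL11, RPS3, RPS19, RPS27A and RPS6, and 3 CpGs per mark. A gene that this rule names is not reported here. RPL29, RPS10, RPS15A, RPL10A, RPS13 and the bodies below 5% were named after their values were seen, as was the bound of 5%. Alternatives changed the window, CpG minimum, averaging, transformation and samples.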

Additional observations from a re-analysis of the deposited data

How the results depend on the processing

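No ribosomal protein gene was called in any of 74 fits over starts, bodies and spans, the smallest adjusted p being 0.314, and no single CpG of these genes under either alternative. Replicates carry numbers, but same-numbered samples did not deviate together (all correlations between -0.0387 and 0.0135 across genes). A replicate block cannot change a difference of means between 3 and 3 samples. The differences were thus still -0.0147, 0.0301, -0.578 and 0.00635 points for 5mC starts, 5hmC starts, 5mC bodies and 5hmC bodies. Their sign-flip p ran from 0.25 to 1, where 0.25 is the smallest possible, and the pairing changed no call. The mean differences, none past a threshold, changed sign in some settings, and the cause was not tested. At 5mC starts the difference was 0.0145 with a 250 bp window, and -0.147 to 0.138 leaving out 1 sample. At 5hmC starts it was -0.0906 with a 250 bp window, and -0.00117 to 0.0772 leaving out 1 sample. In bodies 5hmC was -0.0842 as a mean over CpGs, -0.206 as a median over genes, an alternative chosen after seeing the data, and -0.101 to 0.138 leaving out 1 sample. The body 5mC difference was negative in every setting, from -0.820 to -0.256 leaving out 1 sample and -1.25 as a median over genes. The 12 differences with the smallest p, from 10 genes, had the sign reported in all settings run. They were picked by p from the same samples that most settings refit, so this was largely set by the choice. RPS21, RPL34, RPL31 and RPL35A have under 10 CpGs there, so that minimum gives them no value. Groups of 3 samples, unknown depth and RRBS coverage, which gives under 5 CpGs at 9 of the 74 starts for 5mC and 10 for 5hmC, limit what can be seen.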
